A study of Mus musculus with 8 samples.

Results

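The 2 mature arms of the microRNA (miRNA) miR-155, mmu-miR-155-5p and mmu-miR-155-3p, were followed in mouse bone marrow-derived macrophages by small RNA sequencing. They were taken by name, are called miR-155-5p and miR-155-3p below and are 2 of the 1907 mature miRNAs listed for each library. The LPS group held 3 libraries of cells exposed for 3 h to LPS at 100 ng/ml. LPS is an outer membrane component of Gram-negative bacteria that Toll-like receptor 4 senses. The control group held 3 libraries of unstimulated cells. Both groups were wild-type macrophages grown from the marrow of mice aged 8 to 12 weeks, differentiated for 6 days in L929 supernatant, a conditioned medium that supplies M-CSF. The labels state neither whether separate animals or cultures gave rise to the libraries of a group nor whether control cells received a vehicle. All p-values thus rest on the spread between these libraries, in the model fits moderated over the whole set tested, and that spread may be technical. A chromosome conformation assay (3C-seq) of the locus makes up the rest of the series and was not analysed here.

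A miRNA hairpin is cut by Drosha and Dicer into a short duplex. Usually the guide strand is loaded into an Argonaute protein and kept, while its partner, the passenger strand, is degraded sooner. The guide finds its target messages mainly through its seed, bases 2 to 8. The hairpin of miR-155 is made from a long noncoding transcript, Mir155hg (once called Bic), which NF-kappaB and AP-1 factors are known to switch on in activated immune cells. Its guide, miR-155-5p, is known to repress Socs1, an inhibitor of cytokine signalling, and Inpp5d, the phosphatase SHIP1, and so is regarded as an enhancer of inflammatory responses.

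The hairpin is shown first because the results turn on its arms, which are in capitals here, 5′ to 3′, from RefSeq on GRCm38.p6.
Mir155 hairpin: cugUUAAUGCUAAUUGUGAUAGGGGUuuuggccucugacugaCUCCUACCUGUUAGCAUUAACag
It lies on the + strand at chr16:84714140-84714204, inside the span of Mir155hg (chr16:84713023-84715245). The table gives gene spans only, so the hairpin is not assigned to an exon or an intron here.
The mature arms follow with their seeds in capitals, since the seed sets which messages an arm can pair with.
miR-155-5p: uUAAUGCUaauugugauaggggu
miR-155-3p: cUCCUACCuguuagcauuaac
The 5p arm has 23 bases (chr16:84714143-84714165) and the 3p arm 21 (chr16:84714182-84714202), with 16 bases of loop side between them.

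The arms have different seeds. Among 1679 mature mouse sequences in the RefSeq table, no other miRNA carried the seed of either arm, also when compared over bases 2 to 7. Of the 1907 listed miRNAs, 1623 had a sequence in that table. Each arm occurred in 1 hairpin of the table, and no other annotated hairpin overlapped the locus.

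The predicted fold of the hairpin (RNAfold, minimum free energy -27.2 kcal/mol) joined the arms by 19 base pairs. The 5 pairs nearest to the start of miR-155-5p were all A-U, and the 5 nearest to the start of miR-155-3p comprised 3 G-C, 1 A-U and 1 G-U pair. Argonaute loading is known to favour the strand whose 5′ end is less tightly paired and starts with U. miR-155-5p starts with U and miR-155-3p with C. Of 86 hairpins with both arms tested and both sequences in the table, 45 had a more abundant arm that starts with U and 15 a less abundant arm that starts with U. The combination seen in miR-155, U on the more abundant and C on the less abundant arm, was found in 18 of the 86. The promoter window of Mir155hg, from 250 bases before to 50 after its annotated start, held no TGANTCA (AP-1-like) and no NF-kappaB-like decamer on either strand. Of 32851 promoter windows, 7.81% held TGANTCA and 8.46% held the NF-kappaB-like decamer. The decamer was GGGRNNYYCC, where R is a purine, Y a pyrimidine and N any base. For Mir155hg only this window was searched and a match is not a site, so binding of these factors was not tested.

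Library totals ranged from 3280688 to 4105395 miRNA counts in the LPS group and from 3912296 to 4312555 in the control group. Levels below are CPM, the counts of a library scaled to a common size with TMM factors of 0.96 to 1.05. The haematopoietic miRNA miR-142a-5p, on the list of myeloid markers, averaged 57063 CPM after LPS and 56253 in controls, and the myeloid marker miR-223-3p 2339 and 2279 CPM. miR-223-5p fell to 257.4 CPM after LPS, against 467.4 CPM in controls (edgeR adjusted p = 0.00623). miR-142a-3p, the partner of miR-142a-5p, had 0 counts in all 6 libraries, against 196331 to 238828 for miR-142a-5p. The counting rule is not given, so this 0 is not read as absence of the arm. The 4 miRNAs listed as myeloid markers summed to 55061 to 64374 CPM after LPS and 56797 to 61825 in controls. Most of each sum was miR-142a-5p, so the sums do not tell myeloid cells from lymphocytes. The lymphocyte markers miR-150-5p and miR-150-3p summed to 63.7 to 77.6 CPM after LPS and 56.3 to 71.3 CPM in controls. Activated lymphocytes are also rich in miR-155, and whether these libraries held any was not tested. The 3 erythroid markers summed to at most 1.58 CPM and the 5 stromal markers to at most 2.21 CPM in any library. The 5 epithelial markers summed to 189.9 to 236.1 CPM after LPS and 207.0 to 221.4 CPM in controls. Liver, muscle and brain markers (miR-122-5p, miR-1a-3p, miR-133a-3p and miR-124-3p) had no counts. How reads that map to several places were counted is not given, so a count of 0 need not mean absence.

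The first comparison asked how far LPS moved the level of each arm. miR-155-5p, the guide, had 16393, 17259 and 17650 counts in the LPS libraries, against 4659, 1164 and 2813 in the control libraries. After scaling these were 5189, 4230 and 4478 CPM after LPS and 1106, 282.5 and 682.0 CPM in controls. All 3 LPS libraries lay above all 3 controls, and the lowest LPS value was 3.83 times the highest control value. The mean was 4632 ± 497.9 CPM after LPS and 690.1 ± 411.7 CPM in controls (SD, n = 3 each), a ratio of means of 6.71. Whether more cells made miR-155 or each cell held more of it cannot be told apart in these bulk libraries.

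miR-155-3p, the passenger, had 1443, 1874 and 1997 counts in the LPS libraries, against 27, 8 and 16 in the control libraries. The levels were 456.8, 459.3 and 506.7 CPM after LPS and 6.41, 1.94 and 3.88 CPM in controls. The groups were far apart, the lowest LPS value being 71.3 times the highest control value. The mean was 474.3 ± 28.1 CPM after LPS and 4.08 ± 2.24 CPM in controls (SD, n = 3 each), a ratio of means of 116.3. The 3 LPS values of the passenger fell inside the range of the 3 control values of the guide, 282.5 to 1106 CPM.

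Both arms rose after LPS by the quasi-likelihood test of edgeR, adjusted by the Benjamini-Hochberg method over the 357 miRNAs that passed a filter on low counts. Among these 357, 3.64% were called higher and 5.04% changed in either direction. The log2 fold change, LPS over control, was 2.75 for the guide (SE 0.38, edgeR adjusted p = 0.000981) and 6.85 for the passenger (SE 0.27, edgeR adjusted p = 4.11e-08). edgeR takes a single spread per miRNA for both groups, moderated over all tested miRNAs. The SD of log2 CPM was 0.997 in controls and 0.152 after LPS for the guide, and 0.751 and 0.0841 for the passenger. These p-values do not take up this unequal spread. Full separation of the groups with LPS higher was seen for both arms and for 8.68% of all tested miRNAs. By size of change the arms held ranks 1 (3p) and 2 (5p) of 357, while by p-value miR-155-3p held rank 1 and miR-155-5p rank 9. Without control replicate 2, the library with the least miR-155, the log2 fold change was 2.39 (guide) and 6.52 (passenger), and without control replicate 1 it was 3.22 and 7.29.

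**Figure D1:**
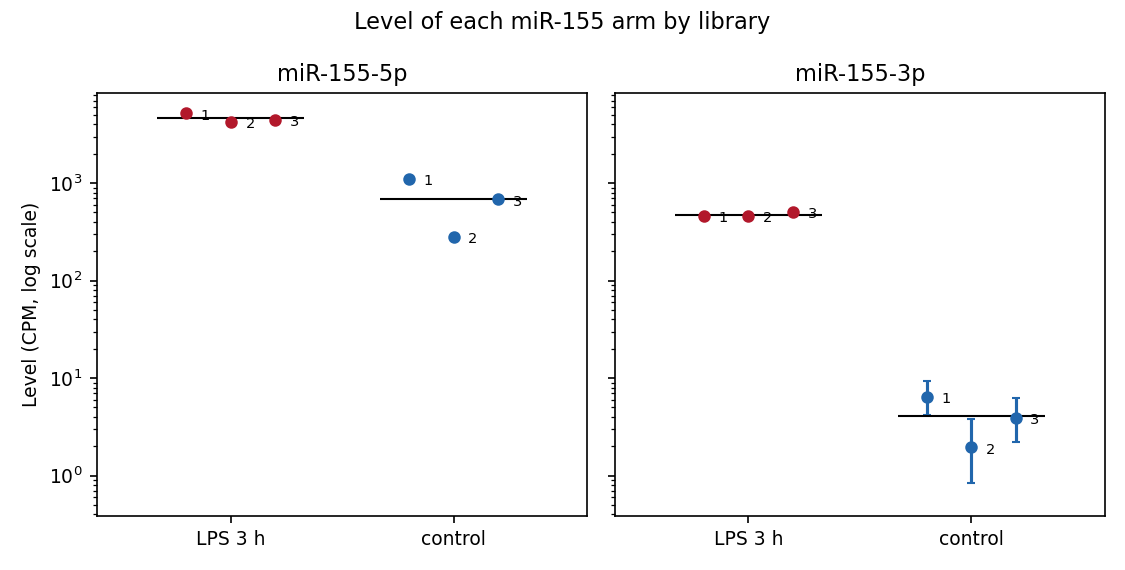
Level of miR-155-5p (left) and miR-155-3p (right) in each library, in CPM on a log axis, with LPS libraries in red and controls in blue. Points are single libraries numbered by replicate, bars are 95% Poisson intervals of the counts and black lines are group means. LPS libraries sit at 4230 to 5189 CPM for 5p and 456.8 to 506.7 CPM for 3p, above every control.

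In absolute terms the guide gained more than the passenger. Mean levels were higher after LPS by 3942 CPM (5p) and by 470.2 CPM (3p), so the passenger made up 10.7% of the CPM gained by the hairpin. Among all 1907 listed miRNAs these gains held ranks 4 and 14. The 3 larger gains, named after their values were seen, were those of miR-21a-5p (17246 CPM, with overlapping groups and an edgeR adjusted p of 0.943), miR-222-3p (7035 CPM) and miR-21a-3p (4092 CPM).

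The next question was where the arms stand in the miRNA pool. miR-155-5p ranked 24, 28 and 28 among the listed miRNAs in the LPS libraries, counting from the most abundant, and 56, 85 and 63 in the controls. miR-155-3p ranked 73, 71 and 69 in the LPS libraries and 281, 359 and 311 in the controls. Neither arm's ranks overlapped between the groups, and how many other miRNAs share this was not counted. The difference in mean rank was -41.3 for 5p and -246 for 3p (two-sided exact permutation p = 0.1 for each, the smallest that 3 against 3 libraries can give). Of the miRNAs detected in a library, 89.3% to 90.1% had fewer counts than the passenger after LPS, against 46.7% to 58.7% in controls.

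Together the arms took 0.544%, 0.479% and 0.479% of all miRNA counts in the LPS libraries and 0.109%, 0.0300% and 0.0705% in the controls. That was 1 in 183.9, 208.7 and 209.0 counts after LPS, against 1 in 920.3, 3338 and 1418 in controls. The LPS libraries were close to each other and the controls spread widely. The difference in mean share was 0.431 percentage points (two-sided exact permutation p = 0.1).

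**Figure D2:**
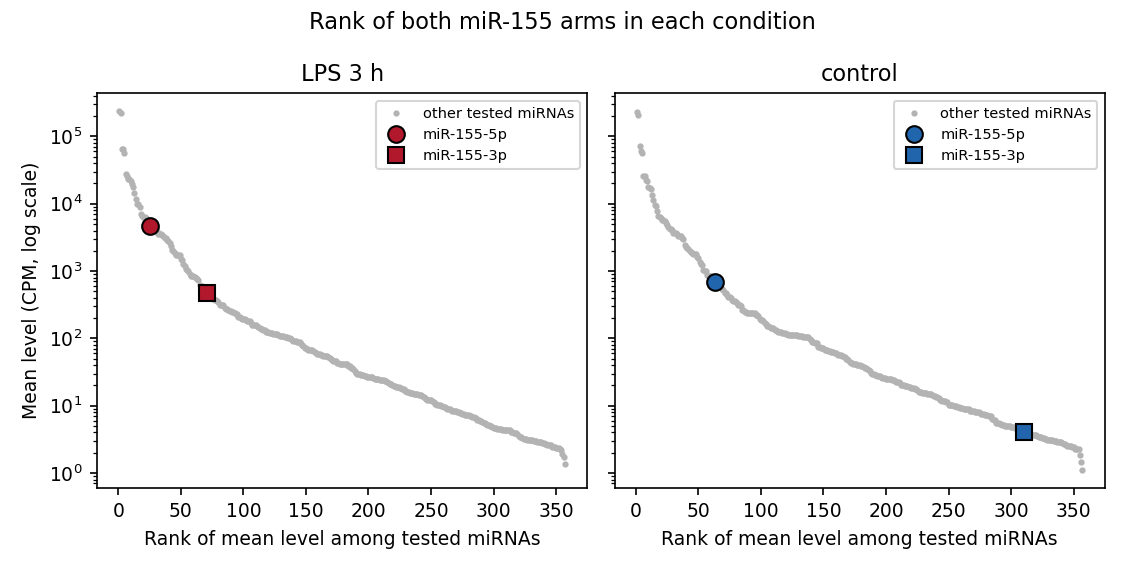
Mean level in CPM (log axis) of the 357 tested miRNAs against their rank, after LPS (left) and in controls (right), with miR-155-5p as a circle and miR-155-3p as a square. Both arms stand further to the left after LPS, the 3p arm at rank 71 against rank 310 in controls and the 5p arm at rank 25 against rank 63.

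Neighbours in the order of mean levels could not be separated from the arms. After LPS miR-155-5p stood between miR-340-5p (5456 ± 728.1 CPM) and let-7g-5p (4505 ± 421.7 CPM), and the ranges of 7 miRNAs overlapped its own. In controls it stood between miR-744-5p (729.8 ± 86.3 CPM) and miR-101b-3p (663.9 ± 47.2 CPM), where the ranges of 33 miRNAs overlapped its own. After LPS miR-155-3p stood between miR-339-3p (475.1 ± 35.1 CPM) and let-7b-5p (468.2 ± 72.9 CPM), with 8 overlapping miRNAs. In controls its neighbours were miR-32-3p (4.09 ± 1.02 CPM) and miR-363-3p (4.02 ± 0.943 CPM), and 127 miRNAs overlapped it. In proportion to their levels, both arms also ranged more widely in controls. Within a factor of 2 of the mean of miR-155-3p lay 82 tested miRNAs in controls and 36 after LPS. For miR-155-5p these were 29 and 25. What the wider overlap in controls rests on was not tested.

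The balance between the arms was the next comparison. miR-155-3p made up 8.09%, 9.79% and 10.2% of the miR-155 counts in the LPS libraries, against 0.576%, 0.683% and 0.566% in the controls. The shares did not overlap between groups (difference in means 8.74 percentage points, two-sided exact permutation p = 0.1, the smallest possible). How many other hairpins have shares that separate in this way was not counted. Put as a ratio, there were 11.4, 9.21 and 8.84 guide counts for each passenger count after LPS and 172.6, 145.5 and 175.8 in controls. The guide remained the more abundant arm in all 6 libraries.

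Counting error was small beside this difference but not within the controls. The exact (Clopper-Pearson) 95% intervals of the 3p share were 7.69% to 8.50%, 9.38% to 10.2% and 9.75% to 10.6% in LPS libraries 1, 2 and 3. They were 0.380% to 0.837%, 0.295% to 1.34% and 0.324% to 0.917% in control libraries 1, 2 and 3. The 3 control intervals overlapped, while that of LPS replicate 1 lay below those of the other LPS libraries. Pooled over libraries, 5314 of 56616 miR-155 counts were 3p after LPS (9.39%) and 51 of 8687 in controls (0.587%). Reads carry no molecular identifiers, so these intervals cover counting error only.

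**Figure D3:**
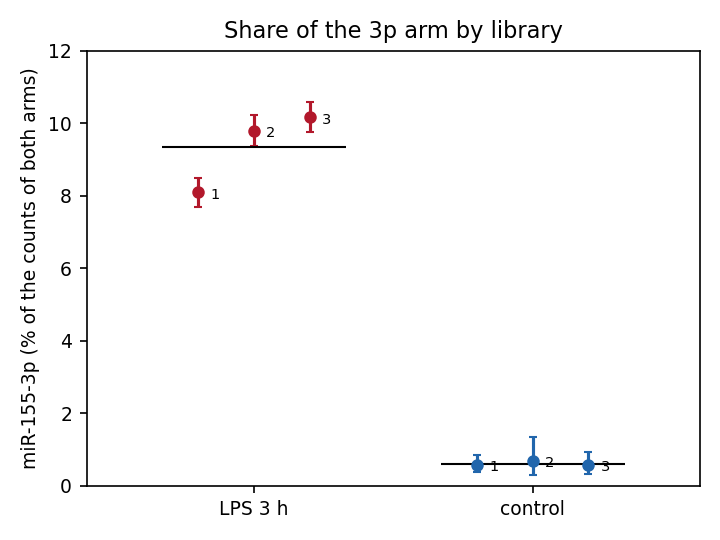
Share of miR-155-3p in the counts of both miR-155 arms, in percent, for each library (numbered by replicate), with exact 95% binomial intervals and group means as lines. LPS libraries lie at 8.09% to 10.2% and controls at 0.566% to 0.683%.

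Within the controls the level of both arms varied more than their balance. Control libraries 1 and 2 differed 3.92-fold in miR-155-5p and 3.30-fold in miR-155-3p. Their 3p shares were 0.576% and 0.683%, with overlapping intervals. After LPS the order of the libraries differed between the arms, with 5p highest in replicate 1 (5189 CPM) and 3p highest in replicate 3 (506.7 CPM).

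Whether other hairpins shifted their balance in the same way was examined with limma, on the difference in log2 CPM between the less and the more abundant arm of each hairpin, over the 100 hairpins with both arms tested. For miR-155 the passenger gained on the guide by 3.87 on the log2 scale (SE 0.20, limma adjusted p = 2.85e-10). A gain of the less abundant arm was called in 9 of the 100 hairpins (9%), and a shift in either direction in 12%. Among these 100 hairpins miR-155 held rank 1 in this difference. The next were miR-146a at 2.21 (SE 0.27), miR-125a at 1.97 (SE 0.22) and let-7e at 1.70 (SE 0.25). Whether the value of miR-155 exceeds these was not tested.

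The more abundant arms of these hairpins are given beside that of miR-155. The log2 fold change of the more abundant arm was 2.75 for miR-155, which passed the edgeR test, and 0.21 for miR-146a-5p, 0.24 for miR-125a-5p and 0.17 for let-7e-5p, which did not. In miR-222, named after its values were seen and next in order with an arm difference of 1.17 (SE 0.19), the more abundant arm miR-222-3p also passed (log2 fold change 0.52, edgeR adjusted p = 0.0176). A rise of both arms was therefore not particular to miR-155. By the share of the less abundant arm, counted from the most one-sided hairpin, miR-155 stood at rank 58 of 100 after LPS and at rank 17 of 100 in controls. In controls it was thus among the more one-sided hairpins and after LPS near the middle.

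**Figure D4:**
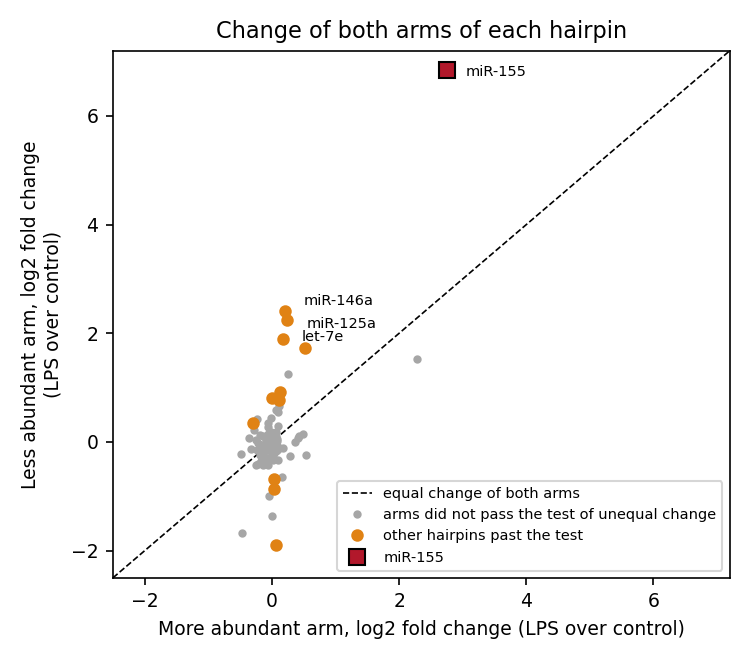
Log2 fold change (LPS over control) of the less abundant arm against that of the more abundant arm for 100 hairpins, with the dashed line marking equal change. miR-155 (red square) lies at 2.75 and 6.85. miR-146a, miR-125a and let-7e lie above the line with more abundant arms at 0.17 to 0.24.

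The spread between libraries was the last property described. In controls the SD of log2 CPM of miR-155-5p was 0.997, the third largest of the 357 tested miRNAs. All 29 miRNAs within a factor of 2 of its control level had a smaller SD, with a median of 0.115 and a highest value of 0.30. The value rests much on control replicate 2, since without that library the SD was 0.493, rank 34 of 357. It was 0.898 without control replicate 1 and 1.39 without control replicate 3, and all 29 miRNAs of like level had a smaller SD with any 1 control left out. After LPS its SD was 0.152, and 11 of 25 miRNAs of like level had a smaller one. With 1 LPS library left out it ranged from 0.0582 (without replicate 1) to 0.209, with 8 to 16 of the 25 below it. The 95% Poisson intervals of its control levels were 1074 to 1138, 266.5 to 299.2 and 657.0 to 707.7 CPM, so the 3 controls differed by more than counting error.

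The passenger followed the same pattern. Its SD of log2 CPM was 0.0841 after LPS, with 8 of 36 miRNAs of like level below it, and 0.751 in controls, with 78 of 82 below it. With 1 control left out it ranged from 0.464 (without replicate 2) to 1.06, with 65 to 82 of the 82 below it, and with 1 LPS library left out from 0.00556 (without replicate 3) to 0.106. Here counting error was wide, the Poisson intervals being 4.22 to 9.32, 0.838 to 3.83 and 2.22 to 6.30 CPM in control libraries 1, 2 and 3. Intervals of control libraries 1 and 2 did not overlap. The passenger passed the filter on low counts through its LPS libraries, so miRNAs as scarce in both groups can be missing from the 82. Whether the spread itself differed between conditions was not tested, since each SD rests on 3 libraries.

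**Figure D5:**
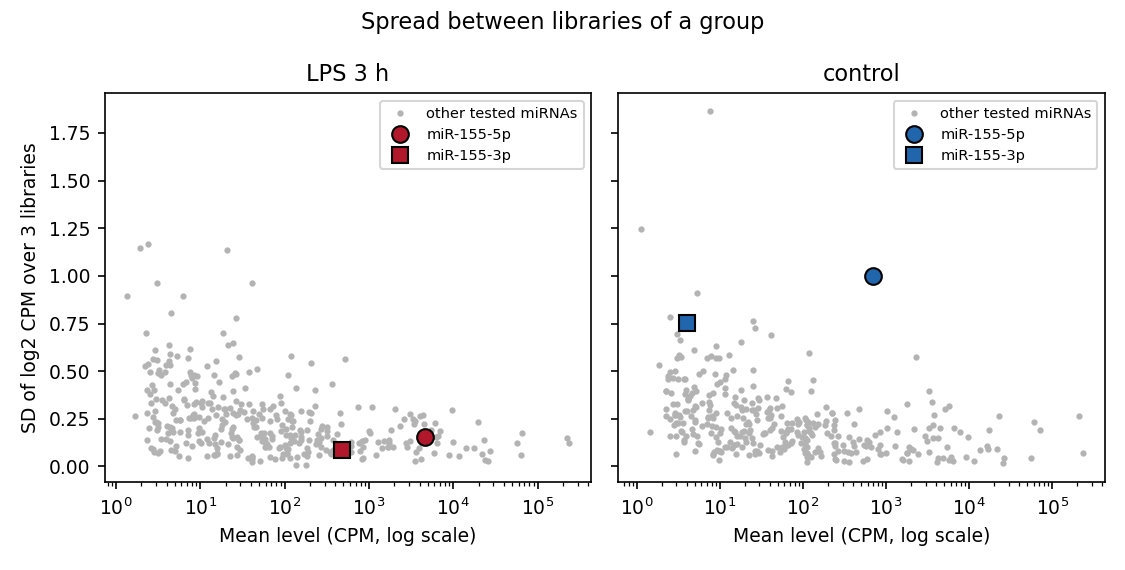
SD of log2 CPM over the 3 libraries of a group against mean level in CPM (log axis) for 357 tested miRNAs, after LPS (left) and in controls (right). miR-155-5p (circle) stands apart from miRNAs of like level in controls at 0.997 and lies among them after LPS at 0.152, and miR-155-3p (square) is at 0.751 in controls and 0.0841 after LPS.

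Profiles most like those of the arms were ranked by Pearson's r of log2 CPM over the 6 libraries, which fall into their 2 groups, so r mainly reflects the difference between groups and is given as a description. For miR-155-5p the 5 highest were miR-155-3p (r = 0.968), miR-210-5p (0.967), miR-7043-3p (0.963), miR-125a-3p (0.956) and miR-455-5p (0.944). For miR-155-3p they were miR-455-5p (0.990), miR-125a-3p (0.983), miR-221-5p (0.983), miR-210-5p (0.974) and miR-155-5p (0.968). All of these except miR-7043-3p (log2 fold change 0.34, edgeR adjusted p = 0.319) were called higher after LPS. The median r over all other tested miRNAs was -0.01 for 5p and 0.02 for 3p.

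Other miRNAs known to be induced by LPS in macrophages were set beside the arms. The list held all arms of miR-146a, miR-146b, miR-147, miR-132, miR-212, miR-9, miR-21a and miR-187, of which 11 of 16 were tested. By edgeR 2 of the 11 were higher, none was lower and 9 did not pass, where 3.64% of all 357 miRNAs were higher and 5.04% changed either way. They had a median log2 fold change of 0.11, against 0.01 over all 357. miR-146a-3p, the partner of an arm known to restrain Irak1 and Traf6, averaged 47.5 ± 5.22 CPM after LPS and 8.94 ± 3.27 CPM in controls (log2 fold change 2.41, SE 0.26). miR-21a-3p averaged 9783 ± 1900 CPM after LPS and 5690 ± 1228 CPM in controls (log2 fold change 0.78, SE 0.18). Among those that did not pass, the largest log2 fold changes were those of miR-147-3p at 1.51 (SE 0.42), miR-212-3p at -0.42 (SE 0.23), miR-146b-3p at 0.27 (SE 0.38) and miR-187-3p at -0.27 (SE 0.38). miR-147-5p, the partner of miR-147-3p, had 0 to 22 counts and was not tested. Its level averaged 4.10 ± 1.90 CPM after LPS and 0.241 ± 0.243 CPM in controls. The count of 2 of 11 was 1 of 11 with upper-quartile factors, without LPS replicate 1 or without LPS replicate 3. It was 3 of 11 with DESeq2 or a replicate block and 3 of 12 without control replicate 1. It was 4 of 12 without LPS replicate 2 and 4 of 14 with no filter.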

How the data were processed

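The deposited files hold raw counts (whole numbers per mature miRNA) that the authors left unnormalized, as far as the values show. Novoalign, SAMtools 0.1.19 and GRCm38.p1 (mm10) are named per the submitters' processing notes. How reads were counted, against which miRNA annotation and with what rule for multiply mapping reads is not given in the sources used here. Misassigned or left-out reads could thus alter levels, ranks and shares of counts, both of miR-155 and of the miRNAs it is ranked against.

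Per the labels' protocols, total RNA (Tri Reagent) went into TruSeq Small RNA libraries. Counts were tested with edgeR 4.0.16 (quasi-likelihood F test, TMM, filterByExpr with a minimum count of 10) in R 4.3.3, with adjusted p below 0.05 called a change. Each SE given with an edgeR log2 fold change was derived from the test, as the absolute log2 fold change divided by the square root of F. The 357 tested miRNAs held 99.97% of all counts. Arm balance was fitted with limma 3.58.1 on log2 CPM (prior count 2) with a variance trend. DESeq2 1.42.0 and limma-voom were alternatives. Scripts were tested on simulated data. Pairs of libraries within a group differed by more than sampling noise (lowest chi-square divided by its degrees of freedom 62.3). That value was for control libraries 2 and 3. It was 274.8 for controls 1 and 2, 148.6 for controls 1 and 3, and 81.0 to 101.5 for pairs of LPS libraries. Sequences came from RefSeq tables (GRCm38.p6), folded with RNAfold 2.7.2.

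Named miRNAs were the arms, their neighbours in mean level, the 5 most similar profiles, the next 3 hairpins in arm difference and, of the LPS-induced list, those that passed and up to 4 that did not. Cell type markers came from a list, and the miRNAs with larger CPM gains, miR-222, miR-99b-3p and miR-147-5p were named after their values were seen. Members and lists were chosen with earlier results of these data known.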

Additional observations from a re-analysis of the deposited data

How the results depend on the processing

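The log2 fold changes of both arms and the arm difference kept their direction and stayed past the threshold in every alternative run, and the 3p share, the share of all counts and both ranks kept their direction, with tests that cannot pass the threshold at 3 libraries a group. Over those alternatives miR-155-5p ranged from 2.39 to 3.22 (edgeR, DESeq2 or limma adjusted p up to 0.00679), miR-155-3p from 6.52 to 7.29 (up to 1.37e-05) and the arm difference from 3.62 to 4.02 (limma adjusted p up to 9.78e-06). The difference in 3p share ranged from 8.33 to 9.37 percentage points. The difference in mean rank ranged from -47.3 to -32.8 (5p) and from -264 to -225 (3p). The difference in the share of all counts, 0.431 percentage points, was 0.409 to 0.450 with 1 library left out and 1.75 when the 10 most abundant miRNAs were left out of the total, which shrinks the denominator by construction. The SD of log2 CPM of miR-155-5p was 0.123 after LPS and 0.946 in controls with library totals in place of TMM factors. The left-out values of this SD were chosen after seeing the data.

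Counts of calls over all miRNAs moved more. The 13 higher calls were 8 with upper-quartile factors, 18 with no filter, 15 with DESeq2, 14 with RLE factors, and 9 to 13 with 1 library left out. The 5 lower calls were 8 with no filter, 3 with a minimum count of 50, and 2 to 6 with 1 library left out, the 2 being without LPS replicate 3. The 12 hairpins with unequal arms were 7 without the variance trend and 8 to 14 with 1 library left out. The stricter filter left 247 miRNAs tested, and 941 were tested without one. What the changes in the counts of calls rest on was not tested for any setting.

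The groups share replicate numbers, but the labels do not say what a number stands for. Deviations from the group means correlated at 0.0247, 0.144 and -0.0397 between same-numbered libraries 1, 2 and 3, and the libraries numbered 2 alone correlated best with each other, so the numbers were not taken as pairs. With a replicate block the log2 fold change was 2.94 (5p) and 6.87 (3p), the arm difference was 3.87, and 11 miRNAs were higher and 6 lower. Depth limits miR-155-3p in controls most, where 8 to 27 counts carry each level.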

Other observations

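The order of the control libraries in miR-155 was set beside that in other miRNAs. Both arms were highest in control replicate 1, next in replicate 3 and lowest in replicate 2, an order also seen in 63 of 357 tested miRNAs (17.6%) and in 2 of the 11 other miRNAs called higher (18.2%), miR-21a-3p and miR-99b-3p, a share close to that of all tested. The level in control replicate 1 over that in replicate 2 was 3.92 (miR-155-5p) and 3.30 (miR-155-3p), while for those 11 it ranged from 0.458 to 1.55. miR-146a-3p, the arm with the largest log2 fold change after those of miR-155, ran the other way in controls, at 5.22 CPM in replicate 1, 11.4 CPM in replicate 2 and 10.2 CPM in replicate 3. Its LPS libraries were at 53.5, 43.9 and 45.2 CPM.

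Deviations from the group means gave another set of similar profiles, described without a test over 6 libraries. The 5 closest to miR-155-5p were miR-7043-3p (r = 0.994), miR-1191b-5p (0.986), miR-3061-3p (0.981), miR-1843b-5p (0.976) and miR-155-3p (0.973), and the median over all others was -0.01. miR-1843b-5p was at 161.2, 120.6 and 141.3 CPM in control libraries 1, 2 and 3 and between 137.3 and 139.0 CPM in the LPS libraries, a far narrower range than that of miR-155-5p. Such r values follow mainly the 3 controls, where miR-155-5p varies most.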
